A study of Mus musculus with 4 samples.

Results

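The regions described are 392 HNF4A binding peaks of healthy mouse colon that lay crowded together on the chromosomes. Each chromosome except the mitochondrial one was divided into fixed windows of 100 kb from position 1, and each peak was assigned by its centre. The 392 peaks were those in windows holding 10 or more peaks of the water list, which left 33 windows and 17488 other peaks of 17880 in all. The choice used the positions of the water peaks, so the crowding itself is a description and not a finding. The DSS list played no part in the choice and held 215 of its 10678 peaks in the same 33 windows.

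The peaks came from ChIP-seq, which sequences DNA pulled down with an antibody, on epithelium scraped from the colon of adult mice aged 2 to 4 months. HNF4A was profiled in 1 library of control mice, which drank plain water, and in 1 library of mice treated for 6 days with 3% DSS (dextran sulfate sodium), which damages the lining of the colon. A further library of each treatment was made for H3K27ac, which completes the 4 groups. Strain, genotype beyond the letters WT in the name of the water list, the number of animals and any pooling are not stated in the labels. With 1 library per group no p-value is given, and the 95% intervals below cover counting error only, treating peaks as separate although neighbours share a window. Peak lists carry no expression, so the cell makeup of the scrapings was not checked against markers.

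HNF4A, a member of the nuclear receptor family, binds DNA as a homodimer and sustains the genes of differentiated gut epithelium. Its sites commonly lie in groups within enhancers, the stretches of DNA that raise transcription of nearby genes, and active enhancers carry acetylation of histone H3 at lysine 27 (H3K27ac). Mouse chromosomes have their centromere at one end, so the first assembled bases of a chromosome border on satellite DNA, short sequences repeated in long arrays. The windows were therefore described by their layout first. No genome of build mm9, the build of the files, was at hand, so no sequence is printed and no window was assigned to a gene.

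Crowded windows formed the end of a long slope. Of 7712 windows with a water peak, 3412 held a single one, 76 held 8, 29 held 9 and 19 held exactly 10. Above that, 7 windows held 11 peaks, 3 held 12, and single windows held 13, 14, 20 and 42. The windows just under the threshold, with 9 peaks, held 261 peaks of which 60.5% overlapped a DSS peak, and the windows just inside it, with 10, held 190 of which 53.2% did. In the DSS list 2 windows held 10 or more peaks, with 29 and 12, and both were among the 33. The 33 windows lay on 14 of 20 chromosomes, with 6 on chromosome 17, 4 each on chromosomes 3 and 8, and 3 each on chromosomes 2, 5 and 11.

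**Figure D1:**
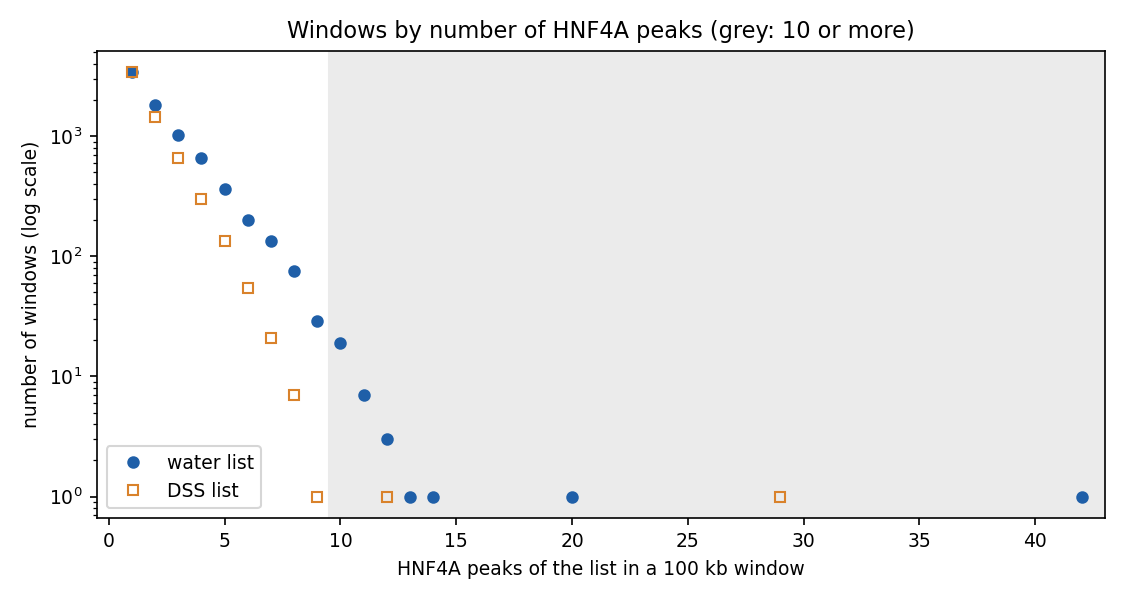
Number of 100 kb windows (log scale) against the number of HNF4A peaks they hold, for the water list (filled circles) and the DSS list (open squares), with windows of 10 or more peaks shaded. The water list falls from 3412 windows with 1 peak to 19 with 10, and 1 window with 42 peaks stands far to the right, as does 1 window with 29 peaks in the DSS list.

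The windows split into closely spaced and spread ones. In 7 windows the median distance between neighbouring peak centres was 387 to 1468 bp, and in the other 26 it was 2286 to 10382 bp, beside a median of 27528 bp over all water peaks. The limit of 2 kb between these classes was set after the spacings had been seen. All peaks were 600 bp wide, so centres closer than that belong to overlapping peaks. In the closely spaced windows 73 of 110 peaks (66.4%) overlapped another water peak, and in the spread windows 72 of 282 (25.5%), where 15.4% of all water peaks did. Stacks of 3 or more peaks joined by overlap occurred in 6 of the 7 closely spaced windows and in 0 of the 26 spread ones, whose longest stack was a pair. Overlaps and stacks rest on the same distances as the classes, so these counts describe the classes and do not test them. Another rule called a window a pile when its overlapping peaks merged into fewer than 10 loci. It put 24 windows in that class, 18 of which had lost just 1 or 2 peaks to merging, and it left out the most crowded window of all, so the spacing classes are used below.

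Closely spaced windows gathered at the edges of the listed chromosomes. Within 500 kb of the first listed peak of a chromosome lay 3 of the 7, on chromosomes 9, 11 and 17, and 2 more, on chromosomes 2 and X, held the last listed peak of theirs. None of the 26 spread windows lay in either place. Of all 7712 windows with a water peak, 7646 remained once those within 500 kb of a first listed peak were left out. The share of all windows at the last listed peaks was not counted. Most chromosome starts were not crowded. In the window that starts at position 3000001, the water list held 42 peaks on chromosome 9, 14 on chromosome 17, 13 on chromosome 11, 8 on chromosome 18, 7 on chromosome 4, 2 on chromosome 3, 1 on chromosome 2 and 0 on the other 13 chromosomes.

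The window at the start of chromosome 9 (chr9:3000001-3100000, mm9) held the most peaks of the 33 windows and the highest median rank percentile. Its 42 water peaks lay within 38.1 kb and merged into 16 loci, with a longest stack of 7 peaks. The first of them (chr9:2999821-3000420) reached across the window's left edge, scored 82.3 and ranked 13 in the water list, where scores ranged from 4.204 to 172 with a median of 9.40. Scores within the window ran from 12.2 to 82.3, all above the median of the list, and 10 of the 100 strongest water peaks lay here. The DSS list held 29 peaks in the same window, led by the same site (chr9:2999816-3000415) at rank 8, and 6 of its 100 strongest peaks. The median rank percentile, where 100 is the strongest of a list, was 97.7 in water and 96.2 in DSS.

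Most peaks of the chromosome 9 pile had a partner in the other library, with a median spacing of 387 bp in water and 759 bp in the shorter DSS list. A DSS peak overlapped 39 of its 42 water peaks (92.9%, interval 81.0 to 97.5), and 28 of the 29 DSS peaks overlapped a water peak. The background share was 52.9% of all water peaks overlapping a DSS peak and 82.3% of DSS peaks overlapping a water peak. In a stack a single DSS peak can meet several water peaks, so the loci were counted as well: 14 of the 16 loci met a DSS peak. The centres of overlapping peaks lay a median of 5 bp apart (quartiles 1 and 152.5), against 30 bp among the other water peaks (quartiles 13 and 61). Across the 39 overlapping pairs, which use 28 DSS peaks, the scores of the libraries were ranked with Spearman's rho of 0.73, beside 0.55 over 9237 pairs outside the crowded windows. These pairs share a window, a genome and both libraries, and the rho is a description. Other water peaks in the same bins of score overlapped DSS peaks in 93.4% of cases, so the window differed from them by -0.55 points (-8.36 to 7.26). No water peak lay in the window that follows it, and none of the listed H3K27ac regions lay in it.

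At the start of chromosome 11 (chr11:3000001-3100000) 13 water peaks and 12 DSS peaks were listed. The water peaks lay in the first 32.7 kb of the window with a median spacing of 1299 bp, and the strongest (chr11:3003694-3004293, score 38.9) ranked 253 in water. Of the 13, 9 overlapped a DSS peak, and 4 of the DSS peaks had no water partner, 3 of them near the far end of the window. Here the median rank percentile was 70.4 in water and 36.7 in DSS. At the start of chromosome 17 (chr17:3000001-3100000) 14 water peaks faced 6 DSS peaks. Of these 14 water peaks 10 stood between 76.8 and 84.4 kb into the window, with a longest stack of 5, and the strongest had a score of 24.3 and rank 1165. Of the 14, 8 overlapped a DSS peak and all 6 DSS peaks overlapped a water peak. The 3 starts held 69 water peaks in all, with 56 overlapping a DSS peak (81.2%, interval 70.4 to 88.6).

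The other closely spaced windows were smaller. The window with the last listed peak of chromosome 2 (chr2:181600001-181700000) held 11 water and 8 DSS peaks in 2 tight groups and a lone peak. Its peaks were strong in both lists, with median rank percentiles of 93.0 and 91.4, and 10 of the 11 overlapped a DSS peak, at a median offset of 3.5 bp. The X chromosome window with the last listed peak (chrX:166400001-166500000) held 10 water peaks within 19.4 kb and 5 DSS peaks, and 6 of the 10 overlapped. An interior window of chromosome 17 (chr17:39900001-40000000) had the shortest pile: 10 water peaks within 5.28 kb that merged into 4 loci, and 8 DSS peaks. All 10 overlapped a DSS peak, but at a median offset of 125 bp, so that the centres in the libraries stood farther apart there than on chromosomes 9 and 2. Its peaks were middling in rank, with medians of 41.6 in water and 39.9 in DSS, and no water peak lay in the 2 windows on either side. The window on chromosome 3 (chr3:122700001-122800000) entered this class through a triplet and pairs of overlapping peaks, at 5 loci spread over 57.9 kb. It held 10 water and 6 DSS peaks, and 7 of the 10 overlapped.

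**Figure D2:**
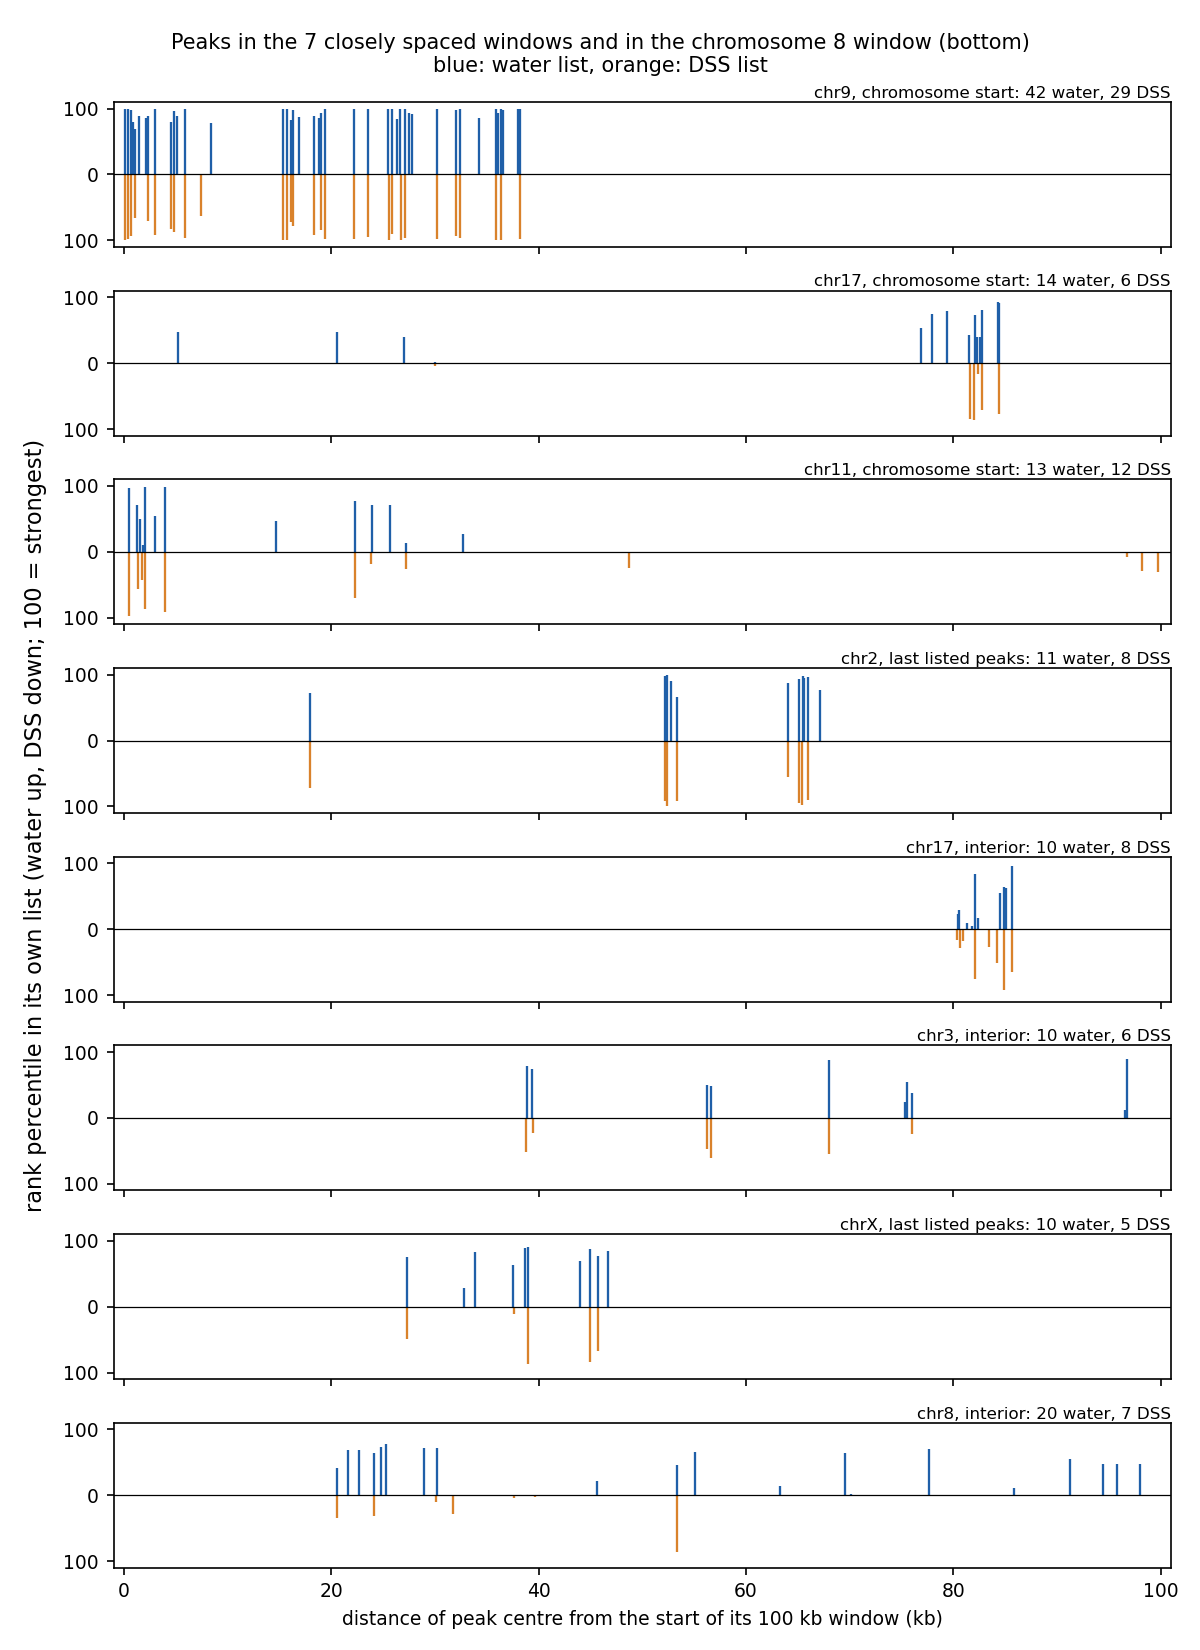
Position of each peak centre from the start of its 100 kb window (kb) and its rank percentile within its own list, water upwards in blue and DSS downwards in orange, for the 7 closely spaced windows and, at the bottom, the chromosome 8 window with 20 water peaks. The chromosome 9 pile of 42 water and 29 DSS peaks shows most DSS peaks at the position of a water peak, whereas on chromosome 8 most of the 20 water peaks have no DSS counterpart.

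Exact repeats of a spacing were found in 3 crowded windows. A distance of 332 bp between neighbouring centres occurred 2 times in the chromosome 2 window at 181600001, one of 204 bp 2 times at the start of chromosome 17, and one of 1275 bp 2 times in a window of chromosome 8 (chr8:19900001-20000000). Among the 804 windows with 5 to 9 water peaks 0 held such a repeat, although these windows have fewer spacings each. Whether these peaks rest on repeated sequence, or on reads that map to several places, was not tested.

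The 26 spread windows held 282 water peaks at ordinary strength. Each window held 10 to 20 peaks, and these spanned 48.9 to 94.7 kb of the window and made 7 to 19 separate loci. Their median rank percentile was 50.8 (interval 46.1 to 57.1), beside 49.8 for the water peaks outside the crowded windows, and 1 of the 100 strongest water peaks was among them. That peak lay in a window of chromosome 2 (chr2:119000001-119100000, score 55.1, rank 67). The surroundings were also rich in peaks. The 2 windows before and the 2 after a spread window together held a median of 9 water peaks, from 1 to 17. That median was 5 around all windows with a water peak, 7 around those with 5 to 9 and 9 around those with 9. Around the closely spaced windows it was 2 (0 to 9). Of those 7 windows 5 held the first or last listed peaks of a chromosome, so the windows beyond them had to be empty. The DSS list held 141 peaks in the spread windows, 3 to 9 per window and fewer than the water list in each of the 26. The windows were chosen for a high water count, which favours this.

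Spread sites were found again in the DSS list about as often as peaks elsewhere. A DSS peak overlapped 137 of the 282 (48.6%, interval 42.8 to 54.4), where the background was 52.9%. The difference from the peaks outside crowded windows was -4.24 points (-10.1 to 1.62), and -5.45 points (-11.3 to 0.42) against peaks of the same water score. Without the chromosome 8 window of 20 peaks it was -2.06 points (-8.12 to 3.99). The strongest water peak of the window overlapped a DSS peak in 24 of the 26 windows. These peaks were picked for their score, and no share was computed for other peaks of equal score. In the score bins of the chromosome 9 window, which are not matched to these peaks, 93.4% of other water peaks overlapped. By window the share ran from 20% to 72.7% with a median of 50%. The highest was in chr15:36800001-36900000, where 8 of 11 water peaks overlapped and the 8 DSS peaks all had a water partner. In chr10:127000001-127100000 7 of 10 overlapped among 9 DSS peaks, and in chr17:34600001-34700000 7 of 11 among 6. Shares were low in chr7:87300001-87400000, with 2 of 10, and in chr11:120900001-121000000, with 3 of 10 and no overlap between its water peaks. With 10 or so peaks each, the intervals of most windows overlap: chr7 had 5.67 to 51.0% and chr15 had 43.4 to 90.3%.

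The chromosome 8 window at 19900001 held the most water peaks of the spread windows, and its share of overlap, equal to that of the chromosome 7 window, was the lowest of the class. Its 20 water peaks had a median spacing of 2286 bp, the closest of the class, and scores from 5.07 to 14.8. The DSS list held 7 peaks there, 3 of them without a water partner. A DSS peak overlapped 4 of the 20 (20%, interval 8.07 to 41.6), and the strongest water peak (chr8:19925018-19925617, rank 3927) did not. The window lies in a wider dense stretch, with 8 and 2 water peaks in the 2 windows before it and 6 in the next.

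**Figure D3:**
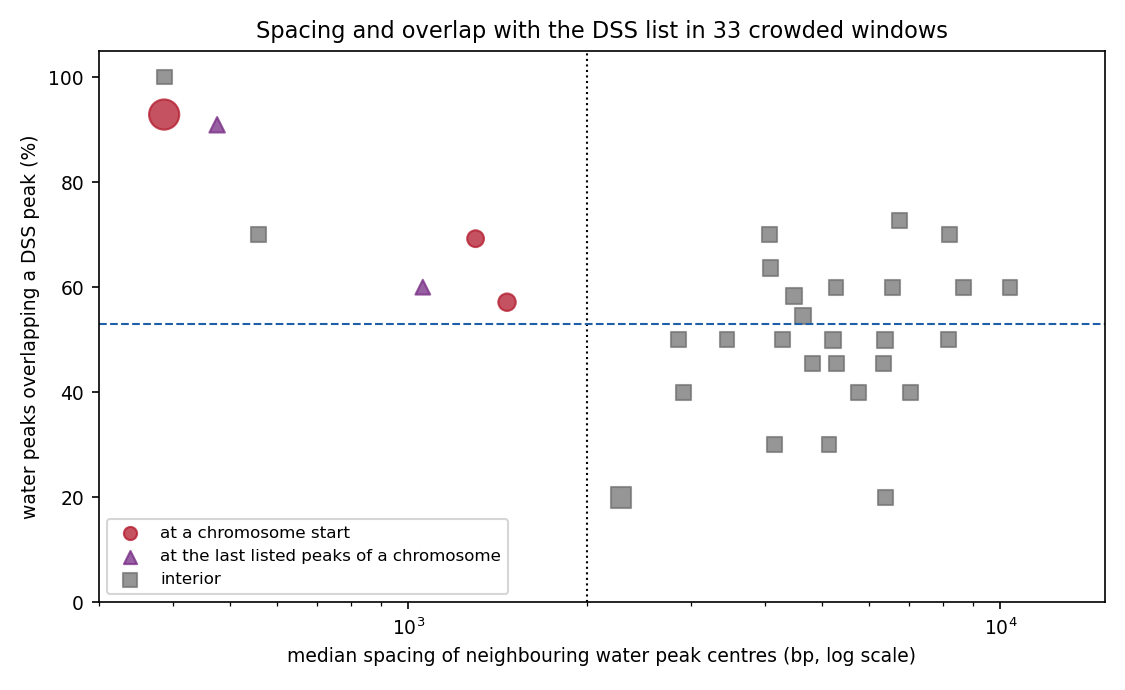
Percentage of a window's water peaks that overlap a DSS peak against the median spacing of neighbouring water peak centres (bp, log scale) for the 33 crowded windows; symbol area grows with the number of water peaks, the dotted line marks 2000 bp and the dashed line the 52.9% of all water peaks. The 7 windows left of the dotted line lie between 57.1% and 100%, and the 26 to the right between 20% and 72.7%.

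Over all 33 windows the share of peaks found again in the DSS list lay close to that elsewhere, and the size of the difference turned on the chromosome 9 window and on how windows were drawn. Of the 392 peaks 226 (57.7%, interval 52.7 to 62.4) overlapped a DSS peak, 4.83 points (-0.16 to 9.68) above the other water peaks. With windows shifted by 50 kb that difference was 7.85 points (3.22 to 12.3) and with a threshold of 8 peaks 5.17 points (2.32 to 7.98), intervals that leave out 0. At matched water score the difference was -2.50 points (-7.43 to 2.43). Without the chromosome 9 window the share was 53.4% of 350 peaks (48.2 to 58.6), a difference of 0.61 points (-4.68 to 5.82). Closely spaced windows had 80.9% of 110 peaks overlapping (72.6 to 87.2), 32.3 points more than spread windows (22.2 to 40.8), and 24.9 points more (12.03 to 35.7) without chromosome 9. Both values shrank against spread-window peaks of the same score, to 6.90 points (-1.31 to 15.1) and 13.6 points (1.98 to 25.1). Counted by locus, 41 of 59 closely spaced loci (69.5%, interval 56.9 to 79.7) and 114 of 246 spread loci (46.3%, interval 40.2 to 52.6) met a DSS peak, beside 51.3% of all 16438 water loci. Without chromosome 9, 27 of 43 closely spaced loci met a DSS peak (62.8%, interval 47.9 to 75.6). That interval overlaps the one of the spread loci and includes the 51.3% of all loci. The closely spaced class was drawn after the data were seen.

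The number of DSS peaks for each water peak differed little between crowded and other windows. It was 0.548 (215 to 392, interval 0.462 to 0.649) in the crowded windows and 0.565 (0.551 to 0.579) in all other windows with a water peak. In the closely spaced windows it was 0.673 (0.494 to 0.911) and in the spread ones 0.5 (0.406 to 0.614), and these intervals overlap. No crowded window held more DSS than water peaks. The crowded windows were chosen for a high water count, which favours this and also a low ratio. The DSS list is the shorter of the 2 and the depth of neither HNF4A library is known from the files, so fewer listed DSS peaks cannot be told apart from less binding. Of the 215 DSS peaks 193 overlapped a water peak (89.8%, interval 85.0 to 93.1), and 22 did not. The share was 87.0% of DSS peaks in all windows with a water peak and 92.1% in those with 5 to 9.

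Below the threshold, overlap rose with the number of water peaks in a window. It was 46.2% (44.5 to 47.9) in windows with 1 water peak, 49.6% with 2, 54.5% with 3 or 4 and 57.9% (56.5 to 59.3) with 5 to 9. All crowded windows together, at 57.7% (52.7 to 62.4), stood level with windows of 5 to 9. The spread ones alone had 48.6%, or 50.8% without the chromosome 8 window, but the classes below the threshold were not divided by spacing. The median rank percentile moved with the same classes, from 44.9 with 1 peak to 53.6 with 5 to 9, and its part in the overlap within these classes was not tested.

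**Figure D4:**
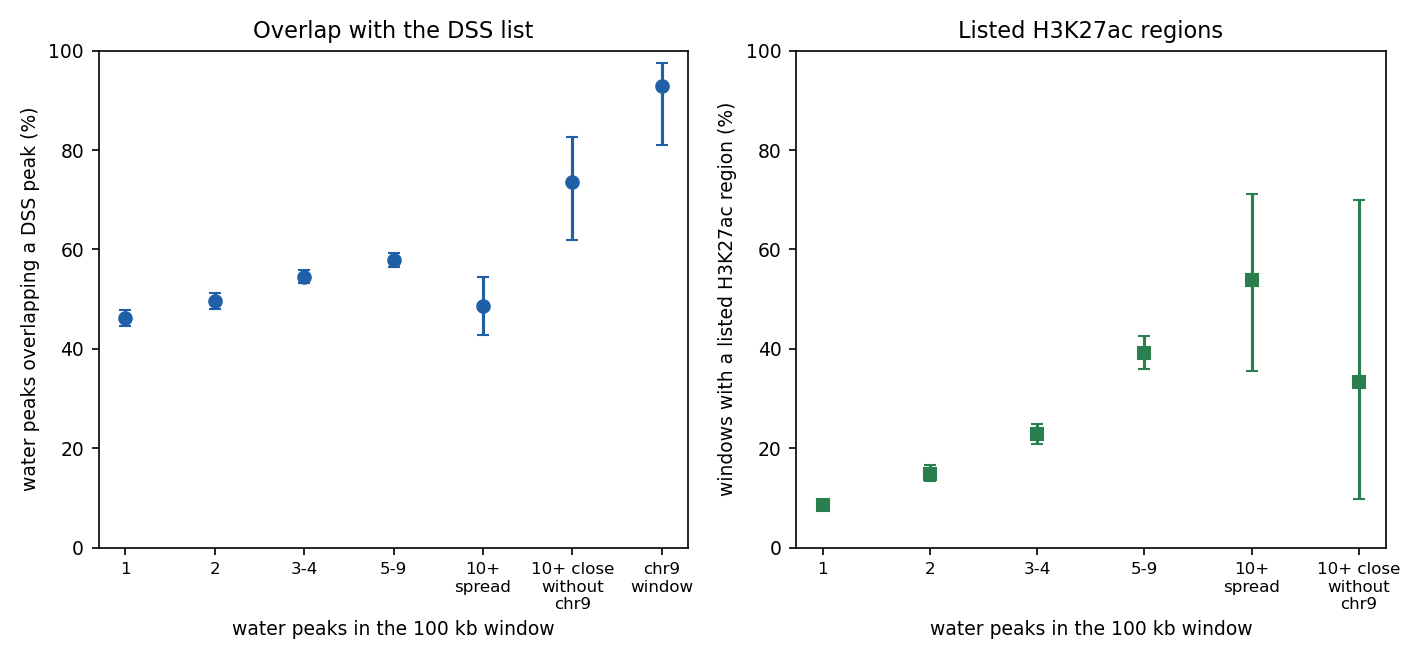
Left, percentage of water peaks that overlap a DSS peak, and right, percentage of windows with a listed H3K27ac region, by number of water peaks in the 100 kb window, with windows of 10 or more divided into spread, closely spaced without chromosome 9, and (left) the chromosome 9 window; bars are Wilson 95% intervals. Overlap rises from 46.2% to 57.9% up to 5 to 9 peaks. It is 48.6% in spread windows, 73.5% in closely spaced ones without chromosome 9 and 92.9% in the chromosome 9 window. The share with H3K27ac regions rises from 8.62% to 53.8% in spread windows and is 33.3% in closely spaced ones without chromosome 9.

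H3K27ac came from separate libraries, for which the authors listed 1000 regions enriched in water and 1000 enriched in DSS. The names of these lists call them the top 1000 and 2kbaway, a distance limit that is not explained. They hold top differences and not all H3K27ac regions, so a window without a listed region may still carry the mark. Of the 33 crowded windows 16 (48.5%, interval 32.5 to 64.8) held the centre of a listed region, against a background of 16.5% of all windows with a water peak. The share climbed with the number of water HNF4A peaks, from 8.62% (7.72 to 9.61) with 1 peak to 14.9% with 2, 22.8% with 3 or 4 and 39.2% (35.9 to 42.6) with 5 to 9. Spread windows had 14 of 26 (53.8%, interval 35.5 to 71.2) and closely spaced ones 2 of 7 (28.6%, interval 8.22 to 64.1), and these intervals overlap. The crowded windows held 16 water-enriched and 7 DSS-enriched regions. In windows with 5 to 9 water peaks the numbers were 287 and 197, and in windows with 1 they were 156 and 202.

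Of the 16 water-enriched regions in crowded windows 12 overlapped a water HNF4A peak (75%, interval 50.5 to 89.8) and 5 a DSS peak, where 45.9% and 32.9% of the whole list did. A crowded window offers more peaks to meet, so this share is not a property of the regions alone. A window of chromosome 2 (chr2:75500001-75600000) held 11 separate water peaks, 6 of which overlapped a DSS peak, and 3 water-enriched regions, all on peaks of both lists. Its region chr2:75554721-75555191 had 387 nucleosome tags in water and 198 in DSS, and another of the 3 regions overlaps it. A window of chromosome 17 (chr17:33000001-33100000) held 10 water peaks, 4 of them with a DSS partner, and also 3 water-enriched regions. None of these met a DSS peak, and the largest (chr17:33055996-33056591) had 951 tags in water and 538 in DSS.

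DSS-enriched regions lay singly in 7 of the 33 windows (21.2%, interval 10.7 to 37.8). The share was 8.87% of all windows with a water peak and 18.7% of those with 5 to 9. Of the 7 regions 4 overlapped a water HNF4A peak and 2 a DSS peak, where 20.9% and 13.8% of the whole list did. Here too a crowded window offers more peaks to meet. One on chromosome 5 (chr5:66466691-66467251) overlapped peaks of both HNF4A lists and had 173 tags in DSS and 106 in water. Another on that chromosome (chr5:135444111-135444646) had 125 tags in DSS and 70 in water and met no HNF4A peak. The one in chr11:120900001-121000000 had 35 tags in DSS and 6 in water and overlapped a water peak. The X chromosome window held a region (chrX:166435326-166435866) with 373 tags in DSS and 62 in water, which lay between HNF4A peaks and overlapped none. At the start of chromosome 11 the listed region was water-enriched (chr11:3035326-3035886), with 338 tags in water and 143 in DSS, and met no HNF4A peak. Tags are as deposited, not scaled by depth, and the authors picked the listed regions on the same tags.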

How the data were processed

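HNF4A and H3K27ac ChIP-seq of colonic epithelium gave 4 libraries, 1 per group. CASAVA 1.8.2 and MACS2 are the tools, and mm9 the build, named per the submitters' processing notes. The authors deposited 1 HNF4A peak list per library, with a score per peak whose kind the files do not state, so ranks were used within a list only. The short codes in the list names are not explained, and a mapping filter for HNF4A reads is not given in the sources used here. The H3K27ac lists hold tag counts at MAPQ20 and an enrichment score that was not used, per the file headers. Peak starts were read as 0-based and are printed 1-based. Peaks on the mitochondrial chromosome were left out.

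Overlap meant at least 1 bp shared. Shares have Wilson 95% intervals, differences Newcombe intervals, ratios exact binomial ones, and medians binomial order intervals. Score matching weighted other peaks in 10 bins of water score, with a normal interval. The functions were tested on simulated lists with planted windows and overlaps (Python 3.11.15, pandas 2.3.3, scipy 1.17.1). The members and classes were chosen with earlier results of these data known. The naming rule took up to 10 windows of 10 or more loci and the 8 fullest of the others. The windows of chromosomes 3 and 7, those of chromosome 17 at 33000001 and 39900001, that of chromosome 2 at 119000001 and that of chromosome 5 at 66400001 fall outside it and were chosen after their values were seen. The RefSeq gene table is of GRCm38, another build, and was not used.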

Additional observations from a re-analysis of the deposited data

Results flagged for a closer look

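Peaks on the mitochondrial chromosome were outside every comparison above, and both HNF4A lists hold some: 6 in water (0.034% of the list) and 10 in DSS (0.094%). Their median rank percentile was 45.5 in water and 72.3 in DSS, and the best of them ranked 135 and 210. The DSS list, the shorter one, thus holds more of them. No control library was available for these peaks, and their origin was not tested.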

How the results depend on the processing

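Of 109 recomputed values 61 stayed within the interval of the reported value, or within 1.5 times a reported count. Windows shifted by 50 kb gave 39 crowded windows and moved no value past these bounds, and neither did an overlap of at least 300 bp or 20 bins of score. Both differences from other water peaks had intervals that include 0, and their signs depended on the setting. The difference of 4.83 points became -3.22 with merged loci, -0.16 without chromosome starts and -4.24 without closely spaced windows. At matched score -2.50 points became 0.85 with a threshold of 8, 1.77 with shifted windows and 3.37 with DSS peaks within 1 kb. The other settings kept the signs. With a threshold of 8 peaks there were 138 windows and 1261 peaks, 129 windows in the pile class of fewer than 10 loci, and 1.45% of windows with 10 or more DSS peaks. With a threshold of 12 there were 7 windows, 125 peaks and 2 piles, 63.2% of peaks overlapped a DSS peak (10.3 points above other peaks), the median rank percentile was 73.5, and 28.6% of windows held 10 or more DSS peaks. Merging overlapping peaks first left 9 windows of 108 loci. Each of these windows holds 10 or more loci by the choice, so 0 piles was fixed in advance. In them 48.1% of loci overlapped, and the share in windows of 10 or more loci is the same value for that reason. It is -3.22 points from other loci and -12.3 points at matched score (-21.7 to -2.82), and 22.2% of windows held 10 or more DSS loci. With the water list cut to the length of the DSS list there were 7 windows, 110 peaks and 4 piles. Overlap was then 71.8%, with 73.2% in piles and 71.0% elsewhere, -8.14 points from other peaks at matched score; the ratio of DSS to water peaks was 0.7, the median rank percentile 83.5, and 28.6% of windows held 10 or more DSS peaks. Without chromosome starts overlap was 52.6%, and 40.2% in windows of 10 or more loci, the median percentile was 54.7 and 0% of windows held 10 or more DSS peaks. Counting DSS peaks within 1 kb raised overlap to 65.6% (64.4% in piles, 67.6% elsewhere) and the differences to 10.3 and, at matched score, 3.37 points. Joining peaks at gaps of up to 1 kb gave 39.4% overlap outside piles.

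Some settings were chosen after seeing the data. Classing by spacing gave 7 piles, with 80.9% overlap against 48.6% elsewhere, where the loci rule had 24 piles with 57.2% against 58.5%. Without the chromosome 9 window the share outside piles was 44% and the median percentile 54.7. Without the closely spaced windows overlap was 48.6% (-4.24 points), the median percentile 50.8 and 0% of windows held 10 or more DSS peaks. The cause of these shifts was not tested. No paired analysis was possible because each group holds 1 library. Their depth is not known for HNF4A, which limits what a missing DSS peak can show.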
